A study of Mus musculus with 24 samples.

Results

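The genes of glycolysis and pyruvate metabolism were followed through the first stages of T cell development in the thymus, in mice with and without a *TLX1* transgene. The 34 genes were chosen by name: the glucose transporters, the enzymes from hexokinase to lactate dehydrogenase, the monocarboxylate carriers, and the pyruvate dehydrogenase complex with its kinases. Of them, 31 had a probe set of a single gene, out of 18193 such genes on the array, and each was read from its probe set with the highest mean signal over all arrays. *Gpi1* and *Eno1* had no probe set in the annotation used, and the 3 probe sets that list *Gapdh* outside the array's controls also list other loci, so these 3 genes are not described. *Eno2*, the neuronal enolase, and *Pdk4* were near background, with mean signals of 4.02 and 5.19, and were left out of the tests, which leaves 29 members.

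Double-negative thymocytes, which lack CD4 and CD8, were sorted as DN1 (CD44+ CD25-), DN2 (CD44+ CD25+) and DN3 (CD44- CD25+) cells from *IgHμ-TLX1Tg Prkdc Scid/Scid* mice (TLX1) and from *Prkdc Scid/Scid* mice (control). Each genotype was represented by 4 pools of 2 to 5 mice of 1 sex, and each pool gave 1 array per stage, so that 24 arrays were made; 2 pools of each genotype were female. The labels give an age of 6 to 8 weeks and an outbred ICR background for all mice, whereas the study's own description includes younger mice in some pools of both genotypes and has the transgene come from a CD1 stock crossed to ICR *Scid* mice. The *Scid* mutation of *Prkdc*, the catalytic subunit of DNA-dependent protein kinase, was carried by the mice of both groups and impairs antigen receptor gene rearrangement. The study's description of its pools lists a large share of thymocytes outside the DN1, DN2 and DN3 gates in TLX1 pool 2 and, larger still, in control pool 3, and almost none in the other 6 pools. The transgene was driven by the *IgHμ* regulatory sequence, which acts mainly in B cells and weakly in thymocytes, and the array's probe set for mouse *Tlx1* was near background in both genotypes (4.51 to 11.4 in TLX1 and 2.75 to 17.3 in control pools), so it gives no check of the genotype labels. The signals are MAS5 intensities on a linear scale, and differences are given on the log2 scale after a floor of 1. A pool is the replicate. Differences between stages are judged against how the differences within a pool vary among pools. Differences between genotypes are judged against the spread between pools of the same genotype.

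Glycolysis splits glucose into pyruvate through a chain of cytosolic enzymes, and most steps can be carried out by several isozymes that are encoded by separate genes and used by different cell types. Pyruvate is then reduced to lactate and exported, or enters the mitochondrion and is oxidised by the pyruvate dehydrogenase complex, whose activity pyruvate dehydrogenase kinases switch off. Thymocytes change between resting and proliferating states as they pass the DN stages, and glucose uptake and glycolysis are known to support their proliferation.

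Some genes that serve the same step moved in opposite directions between DN1 and DN2, and the promoters of 2 such pairs are shown. *Pfkp* and *Slc16a3* were lower at DN2, and *Pfkl* and *Slc16a1* were higher. The *Pfk* pair encodes isozyme subunits and the *Slc16a* pair encodes carriers of lactate. The carrier pair rests on weaker values, since *Slc16a3* was dim at DN2 and the *Slc16a1* call was lost with some settings, as given below. In the *Pfk* pair, a dim probe set of *Pfkl* was not called. Each sequence is the 250 bases before the annotated start of the gene in RefSeq (GRCm38.p6), printed on the strand of the gene. They lie at chr13:6648772-6649021 (minus strand), chr11:120948817-120949066 (plus strand), chr10:78009808-78010057 (minus strand) and chr3:104638414-104638663 (plus strand). Capitals mark ACGTG and GCGTG, the 2 forms of the core that hypoxia-inducible factors are known to bind, on either strand. CACGTG, the E-box that Myc and MondoA bind, holds ACGTG on both strands and is read as 2 matches.
Pfkp: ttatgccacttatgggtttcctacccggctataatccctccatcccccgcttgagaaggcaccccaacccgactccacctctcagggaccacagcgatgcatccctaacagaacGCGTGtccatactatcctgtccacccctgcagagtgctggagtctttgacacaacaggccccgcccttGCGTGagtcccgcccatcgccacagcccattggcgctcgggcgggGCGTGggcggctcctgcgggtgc
Slc16a3: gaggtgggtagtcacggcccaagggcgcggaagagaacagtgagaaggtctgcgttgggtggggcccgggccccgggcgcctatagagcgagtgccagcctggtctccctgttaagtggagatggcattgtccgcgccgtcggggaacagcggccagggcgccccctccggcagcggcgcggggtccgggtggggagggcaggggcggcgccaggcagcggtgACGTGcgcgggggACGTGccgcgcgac
Pfkl: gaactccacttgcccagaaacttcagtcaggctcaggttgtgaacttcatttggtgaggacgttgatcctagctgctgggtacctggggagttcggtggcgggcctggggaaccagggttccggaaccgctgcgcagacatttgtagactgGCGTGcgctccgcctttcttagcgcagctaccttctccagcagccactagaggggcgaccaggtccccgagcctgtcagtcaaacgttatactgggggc
Slc16a1: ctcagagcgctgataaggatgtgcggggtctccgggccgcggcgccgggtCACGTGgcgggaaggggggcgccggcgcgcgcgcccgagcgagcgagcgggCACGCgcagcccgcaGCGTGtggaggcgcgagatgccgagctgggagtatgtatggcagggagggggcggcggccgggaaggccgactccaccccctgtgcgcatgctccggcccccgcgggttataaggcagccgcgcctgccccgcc

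The *Pfkp* window held 3 matches to GCGTG and none to ACGTG, and the *Pfkl* window held 1 match to GCGTG. The *Slc16a3* window held 2 matches to ACGTG, and the *Slc16a1* window held CACGTG once and GCGTG 2 times. Of 32851 windows of this length in the whole table, 16.6% held ACGTG, 28.2% held GCGTG and 6.02% held CACGTG on either strand. Among the 49 windows of the 33 members with an entry the shares were 40.8%, 53.1% and 12.2%. By gene, ACGTG stood before 5 of the 12 members that were higher at DN2 and 5 of the 7 lower members with an entry, GCGTG before 10 and 3, and CACGTG before 3 and 0. Over all 27025 genes with an entry the shares by gene were 18.5%, 30.9% and 6.86%. The members had more windows per gene than the whole table, which raises their counts by gene. A match is a description of these letters and not a binding site.

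Marker genes were read on the same arrays. *Rag1*, which encodes a recombinase of antigen receptor genes, had signals of 199, 3193, 46.9 and 127 in TLX1 pools and 35.5, 75.2, 3769 and 126 in control pools at DN1, in the order of pools 1 to 4 that is kept throughout. TLX1 pool 2 and control pool 3 thus stood apart at DN1, above the 1075 to 1541 of all DN2 arrays and near the 2170 to 3425 of the DN3 arrays, and these are the 2 pools with many thymocytes outside the gates. The part of thymus composition in the values of these pools was not tested, and values without both pools are given below where the difference moved most. Markers of NK and myeloid cells were high at DN1: the NK list summed to 17833 to 27742 in TLX1 pools and 13652 to 32597 in control pools, and the myeloid list to 15452 to 50143 and 21569 to 32597. At DN2 the same sums were 4669 to 5391 and 4328 to 5749 for NK cells, and 1260 to 1931 and 1263 to 1477 for myeloid cells. All 7 NK markers and all 12 myeloid markers tested were lower at DN2 than at DN1, as were 6 of 7 mast cell and basophil markers. The defining NK gene *Ncr1* had 9.61 to 12.2 in TLX1 and 7.28 to 16.4 in control pools at DN2, close to background, against 1887 to 3679.6 and 1333 to 3883 at DN1. The 19 proliferation genes tested were all higher at DN2 than at DN1. In a sorted bulk sample, fewer cells of a type cannot be told apart from less RNA per cell. Pool 4 of both genotypes also stood apart over the array: it was the lowest or the highest of its genotype at all 3 stages, in both genotypes, for 11.2% of probe sets, against 0.107% to 0.178% for pools 1 to 3. An index of RNA quality, the mean log2 difference between the array's 3' and 5' controls for *Actb* and for *Gapdh*, averaged 0.06 over TLX1 and 0.26 over control pools at DN1 (two-sided exact permutation test, p = 0.0857). The means were 0.22 in TLX1 and 0.52 in control pools at DN2 (exact p = 0.0571), and 0.18 and 0.53 in the DN3 fraction (exact p = 0.0286, the smallest that 4 against 4 pools can give), with an adjusted p of 0.129 for each stage.

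Between DN1 and DN2, 12 of the 29 members rose, 8 fell and 9 did not pass the test (limma with each pool as a block, adjusted p under 0.05). Over all 27022 probe sets tested, 28.5% were called higher and 31.2% lower at this step, so that most of the array moved with the sort, and the median difference was 0.18 for the members and −0.06 for all probe sets. The members that rose were *Aldoc*, *Pdk1*, *Slc16a1*, *Pfkl*, *Ldhb*, *Pfkfb3*, *Pdk3*, *Pfkm*, *Hk1*, *Tpi1*, *Pgk1* and *Pdha1*, and those that fell were *Pfkp*, *Hk3*, *Slc16a3*, *Eno3*, *Slc2a3*, *Slc2a1*, *Aldoa* and *Hk2*. Of these, *Slc16a3* passed the filter on signal only through its DN1 arrays. In 14 of the 29 members all 8 pools moved the same way, and all 14 were called. The test with the pool as a block favours such agreement, and its share over all probe sets was not counted. For 6 of the 29 members tested (*Slc2a3*, *Hk3*, *Pfkp*, *Aldoc*, *Eno3* and *Pdha1*) the 8 DN2 arrays did not overlap with the 8 DN1 arrays. The same held for 17.1% of all probe sets tested, a similar share. The falls at DN2 went with the falls of the NK and myeloid markers given above, and the rises with the rise of the proliferation genes; their part in the result was not tested.

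**Figure D1:**
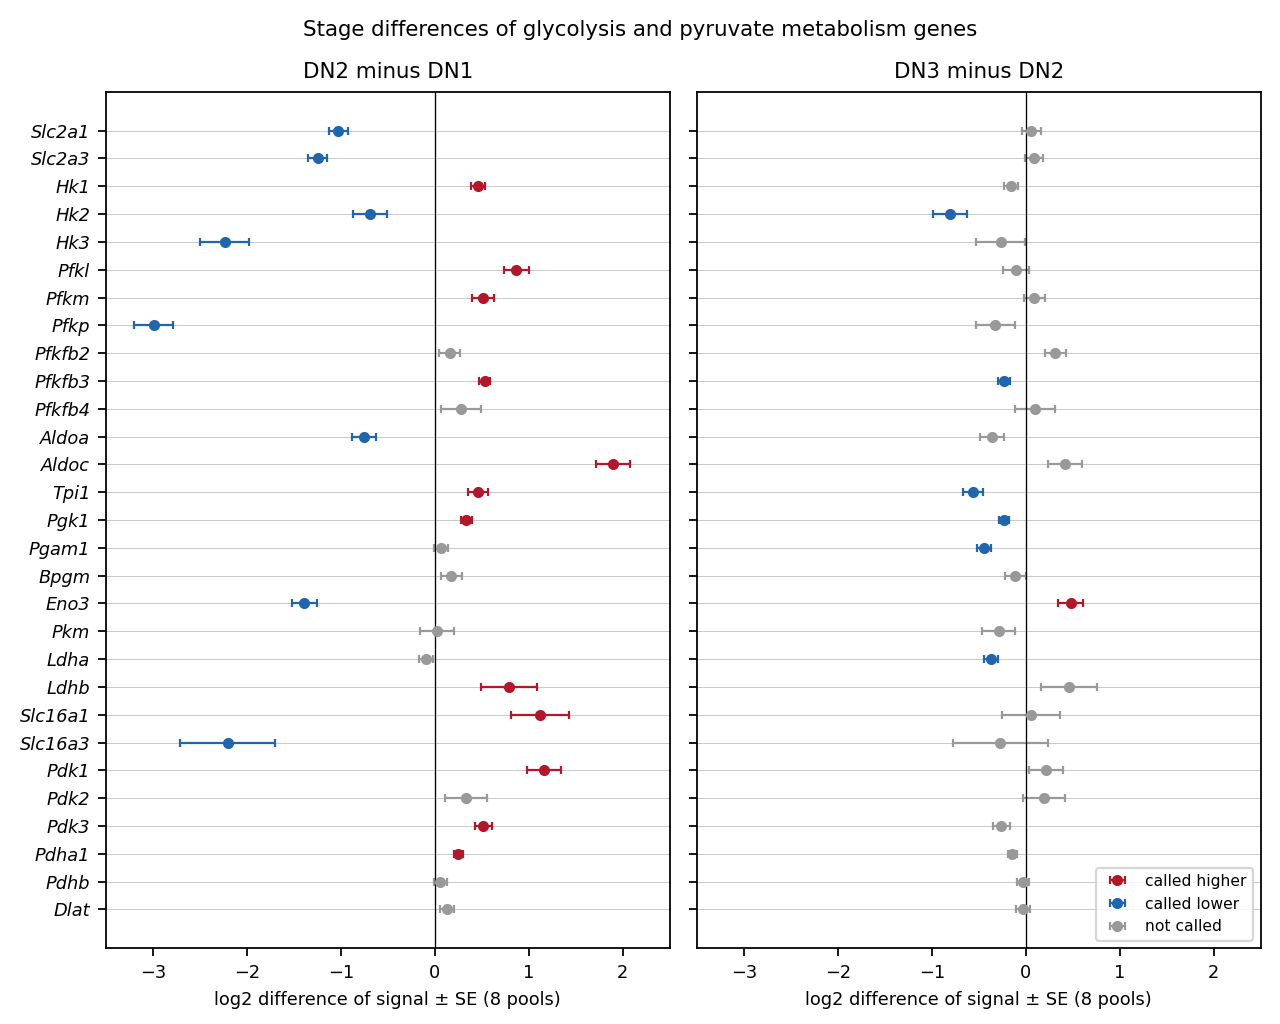
log2 differences of signal between DN2 and DN1 (left) and between DN3 and DN2 (right) for the 29 members tested, as the mean over 8 pools with its standard error; red points were called higher, blue lower and grey not called (limma, adjusted p under 0.05). Differences at the first step ran from −2.99 (*Pfkp*) to 1.90 (*Aldoc*), and at the second from −0.81 (*Hk2*) to 0.48 (*Eno3*).

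Glucose enters T cells mainly through GLUT1 and GLUT3, encoded by *Slc2a1* and *Slc2a3*, and both genes fell. At DN1, *Slc2a3* had signals of 1263, 1449, 1160.2 and 1663 in TLX1 pools and 1245, 1333, 1215 and 1103 in control pools. At DN2, *Slc2a3* had signals of 570.2, 626, 539 and 416 in TLX1 pools and 670.3, 533, 631 and 433 in control pools. At DN3, *Slc2a3* had signals of 534, 581, 512 and 430.4 in TLX1 pools and 702, 641, 808 and 516 in control pools. Every DN1 array lay above every DN2 and DN3 array. The log2 difference was −1.25 ± 0.10 (SE, adjusted p = 1.01e-07) at DN2 relative to DN1 and 0.09 ± 0.10 (SE, adjusted p = 0.588) at DN3 relative to DN2. *Slc2a1* had signals of 306 to 629 across TLX1 pools and 315 to 701 across control pools at DN1, and of 185 to 294 across TLX1 pools and 184 to 331 across control pools at DN2. It was lower at DN2 in all 8 pools, with a log2 difference of −1.03 ± 0.10 (SE, adjusted p = 1.03e-06), and the stages overlapped only in that control pool 4 at DN2 was above TLX1 pool 2 and control pool 3 at DN1. The other probe sets of both genes that passed the filter, 2 for *Slc2a1* and 1 for *Slc2a3*, were called in the same direction.

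Hexokinases trap glucose as glucose 6-phosphate, and the 3 hexokinase genes did not move together. *Hk1*, the broadly expressed form that binds mitochondria, rose at DN2, while *Hk2*, the inducible form, and *Hk3*, a form known from myeloid cells, fell. At DN1, *Hk3* had signals of 89.9, 111, 53.6 and 370.0 in TLX1 pools and 66.5, 104, 53.8 and 118 in control pools. At DN2, *Hk3* had signals of 18.3, 22.1, 18.5 and 25.9 in TLX1 pools and 19.5, 19.4, 18.5 and 26.6 in control pools. At DN3, *Hk3* had signals of 13, 21.3, 15.1 and 10.8 in TLX1 pools and 21.1, 21, 19.8 and 20.5 in control pools. All DN1 arrays were above all DN2 arrays, and the log2 difference was −2.23 ± 0.26 (SE, adjusted p = 4.58e-06), a 4.70-fold lower signal at DN2. TLX1 pool 4 was the highest of the DN1 arrays, and without pool 4 of both genotypes, an alternative chosen after seeing the data, the difference was −1.98 ± 0.15. The signals at DN2 and DN3 were near background, so the fold depends on the floor: with an offset of 32 before the log2 transform the difference was −1.34. At DN1, *Hk2* had 129.7, 135, 93.3 and 289 in TLX1 pools and 149, 96.1, 161 and 173 in control pools. At DN2, *Hk2* had 79.8, 90.2, 67.6 and 123 in TLX1 pools and 91.2, 78.8, 87.1 and 109 in control pools. At DN3, *Hk2* had 38.4, 51.6, 59.7 and 53.6 in TLX1 pools and 33.9, 33, 97.1 and 67.3 in control pools. *Hk2* was the member with the largest fall at DN3: its differences were −0.69 ± 0.18 (SE, adjusted p = 0.00469) at DN2 relative to DN1 and −0.81 ± 0.18 (SE, adjusted p = 0.0132) at DN3 relative to DN2. With the RNA quality index as covariate the first was −0.50 ± 0.21 and no longer called (adjusted p = 0.0578), and with the offset of 32 the second was −0.53 ± 0.13. Control pool 3 was the exception at the second step, with a higher signal at DN3 than at DN2. *Hk1* had signals of 554 to 849 across TLX1 pools and 553 to 768 across control pools at DN1 and 703 to 1022 across TLX1 pools and 665 to 1051 across control pools at DN2, and it rose in all 8 pools by 0.46 ± 0.08 (SE, adjusted p = 0.000108). A second, dimmer probe set of *Hk1* had a difference of −0.05 ± 0.43, so the rise was read by the brighter probe set alone, and the median over both was 0.20 ± 0.22 (adjusted p = 0.43). Over both steps together the brighter probe set had 0.31, and 0.20 ± 0.05 without control pool 3 and TLX1 pool 2. The median over both probe sets was −0.14 ± 0.22 there.

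Phosphofructokinase commits sugar to glycolysis, and its 3 subunit genes gave the widest split of the list. At DN1, *Pfkp* had signals of 1226, 991, 1340.3 and 1274 in TLX1 pools and 1292, 1337, 672 and 1575 in control pools. At DN2, *Pfkp* had signals of 159, 171, 143 and 176 in TLX1 pools and 141, 143, 127 and 138 in control pools. At DN3, *Pfkp* had signals of 111, 144, 96.8 and 138 in TLX1 pools and 93.5, 97.3, 223 and 93.7 in control pools. *Pfkp*, which encodes the platelet-type subunit, was 7.93-fold lower at DN2 than at DN1, a log2 difference of −2.99 ± 0.21 (SE, adjusted p = 2.79e-08), with no overlap between the stages. Its other 2 probe sets, both dim, had differences of −2.36 and −2.04 and were called as well. The 2 DN1 arrays with high *Rag1* had *Pfkp* signals of 991 (TLX1 pool 2) and 672 (control pool 3), the lowest of the DN1 arrays and still far above every DN2 array. At DN1, *Pfkl* had signals of 194, 159, 213 and 43.9 in TLX1 pools and 172, 161, 202 and 64 in control pools. At DN2, *Pfkl* had signals of 361, 363, 345 and 105 in TLX1 pools and 364, 388, 217 and 88.8 in control pools. At DN3, *Pfkl* had signals of 348, 316, 279 and 131 in TLX1 pools and 283, 359.8, 246 and 71.1 in control pools. *Pfkl*, the liver-type subunit, rose in all 8 pools, by 0.87 ± 0.14 (SE, adjusted p = 7.71e-05), and pool 4 of each genotype was the lowest of its genotype at all 3 stages. Of the other 2 probe sets of *Pfkl*, 1 was called higher as well, by 0.66 ± 0.18 (SE, adjusted p = 0.00531). The dimmer of them had 0.03 ± 0.18 (SE, adjusted p = 0.915) and was not called. *Pfkm*, the muscle-type subunit, rose by 0.51 ± 0.11 (SE, adjusted p = 0.00119), in 7 of 8 pools, from its 1 probe set. The exception was control pool 3, where its signal was 140.3 at DN2 and 179 at DN1. None of the 3 genes was called between DN3 and DN2, where *Pfkp* had a difference of −0.32 ± 0.21 (SE, adjusted p = 0.323), lower in 7 of 8 pools, with control pool 3 again the exception. Without control pool 3 and TLX1 pool 2, a setting that leaves out this exception, *Pfkp* was called lower at DN3 as well, at −0.52 ± 0.08.

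**Figure D2:**
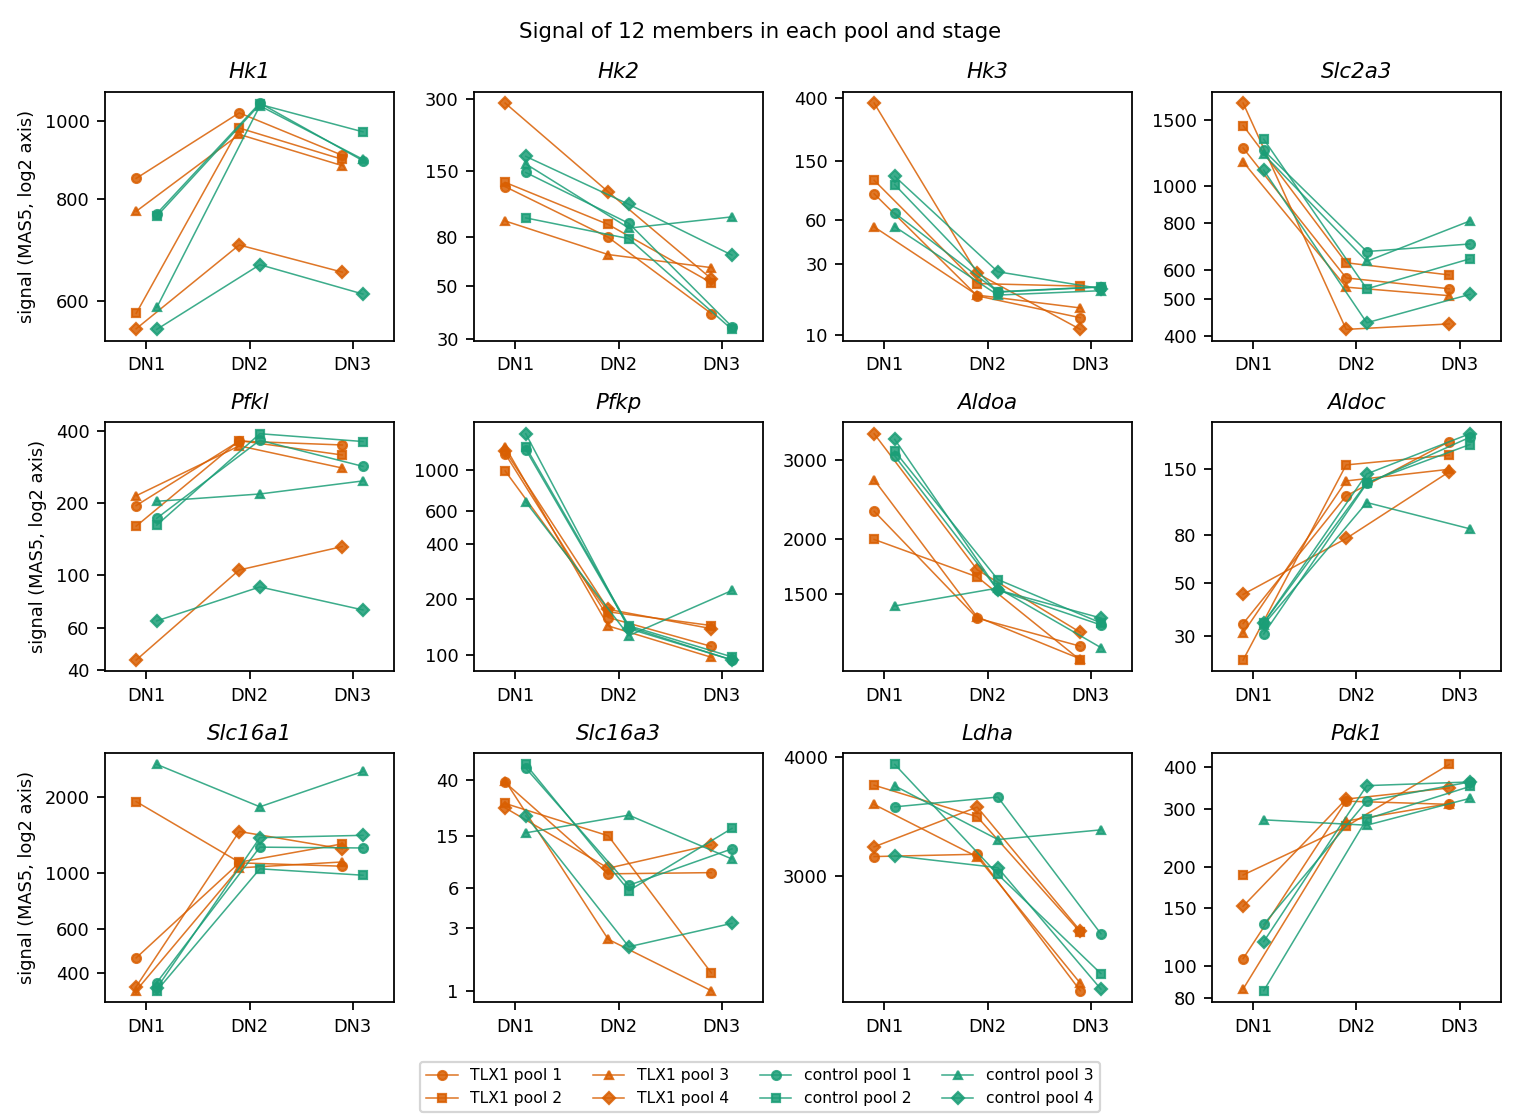
MAS5 signal (log2 axis) of 12 members at DN1, DN2 and DN3; each line joins the 3 arrays of 1 pool, TLX1 pools in orange and control pools in green, and the marker shape gives the pool number. *Pfkp* and *Hk3* drop between DN1 and DN2 in every pool while *Pfkl*, *Aldoc* and *Hk1* climb, and the *Pfkl* and *Hk1* lines of pool 4 are the lowest of their genotype.

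The bifunctional enzymes that make and remove fructose 2,6-bisphosphate, the activator of phosphofructokinase, were represented by 3 genes. *Pfkfb3*, the form with the highest kinase activity, rose in all 8 pools at DN2, by 0.53 ± 0.06 (SE, adjusted p = 3.10e-06), and fell by 0.23 ± 0.06 (SE, adjusted p = 0.0256) at DN3, again in all 8 pools. Its signals were 157 to 238 across TLX1 pools and 159 to 249 across control pools at DN1, 245 to 359 across TLX1 pools and 255 to 313 across control pools at DN2, and 198 to 330.1 across TLX1 pools and 202 to 279 across control pools at DN3. A second, dim probe set of *Pfkfb3* had differences of −0.23 ± 0.23 and 0.24 ± 0.23 at the 2 steps, of the opposite sign and not called, and by the median over both no step of *Pfkfb3* was called (adjusted p = 0.277 to 0.98). *Pfkfb2* was not called at either step, at 0.16 ± 0.11 and 0.32 ± 0.11 (SE, adjusted p = 0.0754), although it was higher at DN3 than at DN2 in all 8 pools, and over both steps together it was called, at 0.47 ± 0.11 (SE, adjusted p = 0.00186). Its other 2 probe sets tested, both dim, had −0.29 and −0.11 over both steps, and by the median over the probe sets the call was lost, at 0.09 ± 0.19 (adjusted p = 0.718). *Pfkfb4* was not called at any step, and its DN1 signals ranged over 53.8 to 195 across TLX1 pools and 43 to 65.3 across control pools.

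Aldolase cleaves fructose 1,6-bisphosphate, and the 2 measured aldolase genes moved in opposite directions. At DN1, *Aldoc* had signals of 33.9, 23.9, 31 and 45 in TLX1 pools and 30.7, 34.2, 33.6 and 34.2 in control pools. At DN2, *Aldoc* had signals of 116, 157, 134 and 77.1 in TLX1 pools and 131, 132, 109 and 144 in control pools. At DN3, *Aldoc* had signals of 196, 172, 150.2 and 147 in TLX1 pools and 205, 191, 84.6 and 212 in control pools. *Aldoc*, known as the brain-type aldolase, was 3.73-fold higher at DN2 than at DN1, a difference of 1.90 ± 0.18 (SE, adjusted p = 6.08e-07), with no overlap, and it was the member that rose most. Its DN1 signals were low, and with the offset of 32 the difference was 1.25 ± 0.12, a 2.38-fold higher signal. Between DN2 and DN3 it was higher in 7 of 8 pools without a call (0.42 ± 0.18, adjusted p = 0.145), and control pool 3 was lower. Over both steps its signal was 4.98-fold higher. At DN1, *Aldoa* had signals of 2303, 1991, 2707 and 3433 in TLX1 pools and 3062, 3138, 1413 and 3334 in control pools. At DN2, *Aldoa* had signals of 1327, 1642, 1336 and 1703 in TLX1 pools and 1535, 1619.9, 1549.9 and 1535 in control pools. *Aldoa*, the ubiquitous form, fell by 0.75 ± 0.13 (SE, adjusted p = 0.000148) in 7 of 8 pools, and control pool 3 started at DN1 near the DN2 level of the others. Of its 4 other probe sets, 3 were called lower, with differences of −0.73 to −0.92, and 1 was not called. *Tpi1*, which encodes triosephosphate isomerase, rose at DN2 by 0.46 ± 0.11 (SE, adjusted p = 0.00192) and fell by 0.56 ± 0.11 (SE, adjusted p = 0.00489) at DN3, each in all 8 pools. At DN1, *Tpi1* gave 1066, 1405, 967 and 814 in TLX1 pools and 896, 1129, 1512 and 851 in control pools. At DN2, *Tpi1* gave 1419, 1533, 1334 and 1726 in TLX1 pools and 1569, 1216, 1579 and 1268 in control pools. At DN3, *Tpi1* gave 887, 991, 836 and 1006 in TLX1 pools and 1016, 869, 1469 and 884 in control pools. The DN2 arrays were thus high relative to both neighbours within each pool, although the ranges of the stages overlapped, and both other probe sets of *Tpi1* were called in the same directions.

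The enzymes below triose phosphate make ATP and pyruvate. Among their genes, *Eno3* fell at DN2, *Pgk1* rose, and *Pgam1*, *Bpgm* and *Pkm* were not called. At DN1, *Eno3* had signals of 107, 95.1, 179 and 109.7 in TLX1 pools and 122, 135, 81.7 and 102 in control pools. At DN2, *Eno3* had signals of 52.9, 39.6, 41.6 and 36.6 in TLX1 pools and 35.2, 43.7, 41.6 and 61.4 in control pools. At DN3, *Eno3* had signals of 53.8, 50.5, 61.8 and 52.6 in TLX1 pools and 73.8, 64.9, 46.1 and 91.1 in control pools. *Eno3*, the muscle-type enolase, fell by 1.39 ± 0.13 (SE, adjusted p = 7.00e-07) at DN2 with no overlap, and it was the only member called higher at DN3, by 0.48 ± 0.13 (SE, adjusted p = 0.036), in all 8 pools. *Pgk1*, phosphoglycerate kinase, rose by 0.34 ± 0.05 (SE, adjusted p = 0.000103) at DN2, in all 8 pools. It fell by 0.23 ± 0.05 (SE, adjusted p = 0.0167) at DN3, again in all 8 pools. Both of its other probe sets were called the same way at each step, with larger differences. These were 0.40 and 0.98 at DN2, and −0.36 and −0.85 at DN3. On the brightest probe set, the *Pgk1* signals were 2384 to 4092 across TLX1 pools and 2632 to 3510.4 across control pools at DN2. At DN2, *Pgam1* had signals of 1377, 1423, 1317 and 1865 in TLX1 pools and 1265, 1234, 1187 and 1452 in control pools. At DN3, *Pgam1* had signals of 1046, 1063, 933 and 1332 in TLX1 pools and 828, 786, 1273 and 951 in control pools. *Pgam1*, phosphoglycerate mutase, was not called at DN2 (0.07 ± 0.08) and fell by 0.45 ± 0.08 (SE, adjusted p = 0.0028) at DN3, in every pool but control pool 3. *Bpgm*, which makes bisphosphoglycerate, and *Pkm*, pyruvate kinase, were not called at either step, with differences of 0.18 ± 0.11 and 0.03 ± 0.18 at DN2 relative to DN1. The *Pkm* probe set cannot separate the splice forms of the gene in these data.

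Lactate dehydrogenase interconverts pyruvate and lactate, and the monocarboxylate carriers MCT1 (*Slc16a1*) and MCT4 (*Slc16a3*) move lactate across the cell membrane. At DN1, *Ldha* had signals of 3143, 3736, 3566 and 3218 in TLX1 pools and 3545, 3929, 3730.0 and 3149 in control pools. At DN2, *Ldha* had signals of 3161, 3461, 3141 and 3543 in TLX1 pools and 3630.0, 3010.3, 3275 and 3059.6 in control pools. At DN3, *Ldha* had signals of 2271, 2617, 2313 and 2626 in TLX1 pools and 2607, 2367, 3353 and 2280.2 in control pools. *Ldha*, the subunit that favours lactate formation, was not called between DN1 and DN2 (−0.09 ± 0.07, adjusted p = 0.298) and fell by 0.37 ± 0.07 (SE, adjusted p = 0.00595) at DN3, in every pool but control pool 3. At DN1, *Ldhb* had signals of 141, 527, 135 and 149 in TLX1 pools and 120.4, 150.4, 916 and 126 in control pools. At DN2, *Ldhb* had signals of 366, 370.3, 327 and 294 in TLX1 pools and 362, 394, 388 and 348 in control pools. At DN3, *Ldhb* had signals of 448, 486, 355 and 457 in TLX1 pools and 502, 582, 692 and 455 in control pools. *Ldhb*, the subunit that favours lactate use, rose by 0.79 ± 0.30 (SE, adjusted p = 0.032), in 6 of 8 pools. The other 2, TLX1 pool 2 and control pool 3, were the DN1 arrays with high *Rag1*, and without them the difference was 1.35 ± 0.08. Because these 2 pools moved the other way, a larger difference without them was fixed in advance and is a description only. The call was lost without any 1 of the other 6 pools, with adjusted p-values of 0.0766 (without TLX1 pool 4) to 0.107 (without control pool 1), and with no filter (0.0545) or the plain paired test (0.118). At DN1, *Slc16a1* had signals of 460.4, 1923, 341 and 354 in TLX1 pools and 367, 341, 2703 and 349 in control pools. At DN2, *Slc16a1* had signals of 1098, 1105, 1049 and 1463 in TLX1 pools and 1268, 1039.7, 1834 and 1383 in control pools. At DN3, *Slc16a1* had signals of 1065, 1306, 1107 and 1248 in TLX1 pools and 1258, 981, 2535 and 1412 in control pools. *Slc16a1* rose by 1.12 ± 0.31 (SE, adjusted p = 0.00593), again in the 6 pools with low *Rag1* at DN1. Without TLX1 pool 2 and control pool 3, again the pools that moved the other way, the difference was 1.72 ± 0.10. In TLX1 pool 2 and control pool 3 both genes were already higher in the DN1 fraction than at DN2. Without pool 4 of both genotypes the *Slc16a1* difference was 0.82 with an adjusted p of 0.0883, and the *Ldhb* difference 0.65 with an adjusted p of 0.188, and by the plain paired test the adjusted p of *Slc16a1* was 0.0523. At DN1, *Slc16a3* had signals of 38.1, 26.4, 39.2 and 24.4 in TLX1 pools and 48.9, 52.2, 15.8 and 21.3 in control pools. At DN2, *Slc16a3* had signals of 7.71, 15, 2.46 and 8.51 in TLX1 pools and 6.31, 5.75, 21.5 and 2.16 in control pools. *Slc16a3* fell by 2.20 ± 0.50 (SE, adjusted p = 0.00166), in every pool but control pool 3, from its 1 probe set. Its mean log2 signals were 4.95 at DN1, 2.74 at DN2 and 2.47 at DN3, so it passed the filter on signal only through DN1. A gene kept in this way is likely to be lower at DN2, so the fall is a description only. With no filter the call stayed, and with the 40% filter the gene was not tested. It was dim at DN2 and DN3, and adding 32 to every signal before the log2 transform gave −0.67 ± 0.12, still a call (adjusted p = 0.000124).

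**Figure D3:**
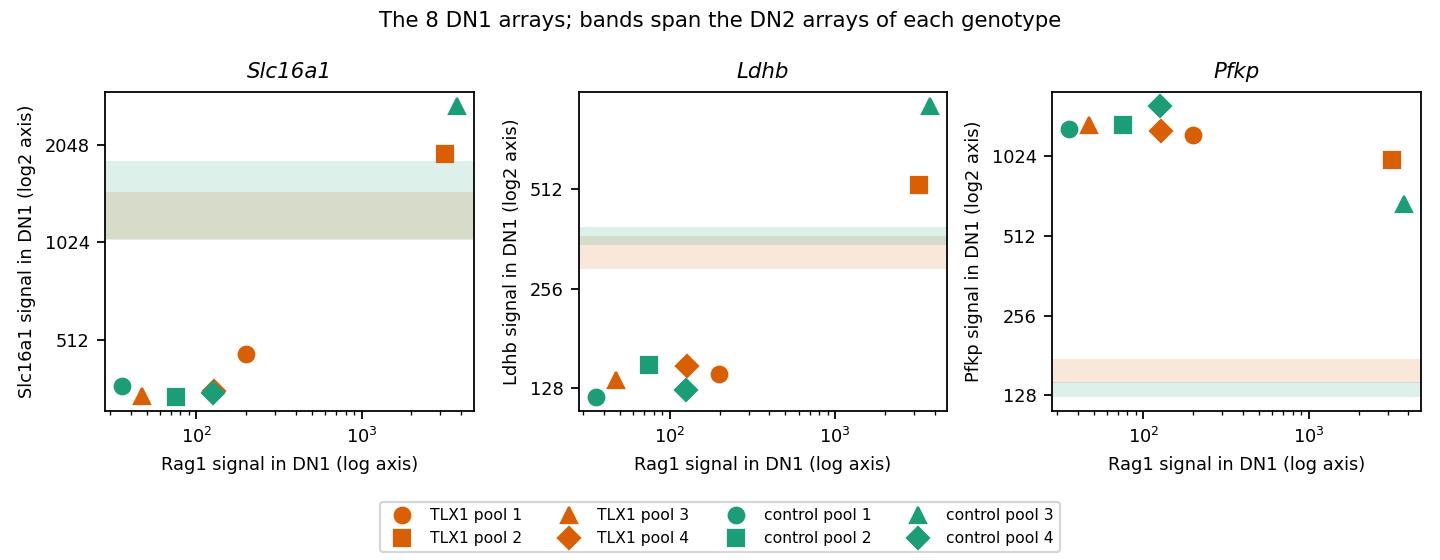
Signals of *Slc16a1*, *Ldhb* and *Pfkp* (log2 axis) against the signal of *Rag1* (log axis) on the 8 DN1 arrays, TLX1 pools in orange and control pools in green; bands span the DN2 arrays of each genotype. TLX1 pool 2 and control pool 3, at the right with high *Rag1*, lie above both bands for *Slc16a1* and *Ldhb*, and far above them for *Pfkp*.

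Pyruvate dehydrogenase kinases phosphorylate and shut the pyruvate dehydrogenase complex. At DN1, *Pdk1* had signals of 106, 189, 85.4 and 152 in TLX1 pools and 134, 84.4, 278 and 119 in control pools. At DN2, *Pdk1* had signals of 316, 265, 275 and 321 in TLX1 pools and 316, 279, 267 and 352 in control pools. At DN3, *Pdk1* had signals of 309, 408, 311 and 347 in TLX1 pools and 361, 350.1, 322 and 361 in control pools. *Pdk1* rose by 1.16 ± 0.18 (SE, adjusted p = 7.62e-05) at DN2, in 7 of 8 pools, and was not called between DN2 and DN3 (0.21 ± 0.18). Control pool 3 was again the exception and had its DN2 level already at DN1, and both other probe sets of *Pdk1* that passed the filter were called higher, by 1.32 and 1.20. *Pdk3* rose by 0.52 ± 0.09 (SE, adjusted p = 0.000195) in all 8 pools, with signals of 324 to 447 across TLX1 pools and 293 to 429 across control pools at DN2 and of 197 to 322 across TLX1 pools and 164 to 329 across control pools at DN1. *Pdk2* had a difference of 0.33 ± 0.23 (SE, adjusted p = 0.219) and was low in pool 4 of both genotypes at every stage. Of the 3 measured genes of the complex, 1 was called. *Pdha1*, the E1 alpha subunit gene, rose by 0.25 ± 0.05 (SE, adjusted p = 0.00054), in all 8 pools and without overlap: 1411 to 1630.2 across TLX1 pools and 1325 to 1624 across control pools at DN2, against 1211 to 1318 across TLX1 pools and 1176 to 1315 across control pools at DN1. *Pdhb*, E1 beta, and *Dlat*, the E2 subunit, were not called, at 0.06 ± 0.07 (SE, adjusted p = 0.449) and 0.13 ± 0.07 (SE, adjusted p = 0.136). One of the other 2 probe sets of *Dlat* was called higher, by 0.39. The rise of *Pdha1* was the smallest of the 20 called differences at this step, and with median centring of the arrays it was 0.42 ± 0.06.

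Between DN2 and DN3 fewer members were called: *Eno3* rose, *Hk2*, *Tpi1*, *Pgam1*, *Ldha*, *Pgk1* and *Pfkfb3* fell, and 22 of 29 did not pass the test. Over all probe sets, 6.93% were called higher and 4.07% lower, and the median difference was 0.08 for all probe sets and −0.11 for the members. The 6 that fell include *Tpi1*, *Pgk1*, *Pgam1* and *Ldha*, which act below aldolase. Of the other tested genes between aldolase and lactate, *Eno3* rose, and *Bpgm*, *Pkm* and *Ldhb* were not called. *Gapdh*, *Eno1* and *Eno2* were not tested. The differences of *Tpi1*, *Pgam1* and *Ldha* were −0.56, −0.45 and −0.37. One pool decided part of these counts: without control pool 3, 10 members fell and 2 rose, and without TLX1 pool 1 or control pool 1, 3 fell. Without pool 4 of both genotypes only *Tpi1* was called (−0.53, adjusted p = 0.0333), while the differences of the other 6 were 0.46 for *Eno3* and −0.22 to −0.76 for those that fell, with adjusted p-values of 0.0556 to 0.138. The *Hk2* call was lost without TLX1 pool 1 (adjusted p = 0.0526), control pool 1 (0.052) or control pool 2 (0.0521), and that of *Pgk1* without TLX1 pool 1 (0.0623), control pool 1 (0.0501) or control pool 4 (0.0588). *Eno3* kept its call only without TLX1 pool 1 or control pool 3, and its highest adjusted p was 0.113, without control pool 1; it also lost the call with quantile normalization (0.166), median centring (0.0998) and no filter (0.0843). *Pfkfb3* lost its call without any TLX1 pool or without control pool 1 or 2, with adjusted p-values of 0.0528 to 0.0861, and both *Pfkfb3* and *Pgk1* lost it with no filter (0.0909 and 0.0724) and with the pool as a random block (0.08 and 0.0832). Over both steps together, DN3 against DN1, 10 members rose and 10 fell, where 30.1% of all probe sets were called higher and 25% lower. *Pfkp* ended 9.92-fold lower at DN3 than at DN1, *Hk3* 5.67-fold lower and *Hk2* 2.83-fold lower, and *Pdk1* was 2.60-fold and *Ldhb* 2.38-fold higher. The first 2 folds changed with the probe set or the floor: by the median over its probe sets *Pfkp* was 3.38-fold lower (−1.76 ± 0.26), and with the offset of 32 *Hk3* was 2.70-fold lower (−1.43 ± 0.18). *Pgam1* and *Ldha*, which were not called at DN2, were lower at DN3 than at DN1 in all 8 pools, with differences of −0.38 ± 0.08 (SE, adjusted p = 0.000669) and −0.46 ± 0.07 (SE, adjusted p = 7.57e-05). *Tpi1* and *Pgk1*, which rose and then fell, had differences of −0.11 ± 0.11 and 0.10 ± 0.05 over both steps and were not called. The call of *Pdk3* over both steps was lost without TLX1 pool 1, 2 or 4 or control pool 1 or 4 (adjusted p up to 0.104). Without pool 4 of both genotypes, *Slc16a1* (0.93, adjusted p = 0.0609) and *Pdk3* (0.17, adjusted p = 0.189) lost their calls over both steps.

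Genes next to the pathway were read from lists chosen by function. Of 22 other glycolysis and pyruvate genes tested, 6 were higher and 9 lower at DN2 than at DN1: *Pgm1*, phosphoglucomutase, had a difference of 1.06, the carrier gene *Slc16a7* (MCT2) 2.96, and the D-lactate dehydrogenase gene *Ldhd* −2.75. Of 8 pentose phosphate pathway genes, 5 were higher and 1 lower, led by *Pgls*, which encodes a lactonase of its oxidative branch, at 1.03 ± 0.08 (SE, adjusted p = 8.19e-08). Of 19 regulators, 7 were higher and 7 lower: *Epas1*, which encodes a hypoxia-inducible factor subunit, had −5.91 and *Txnip*, an inhibitor of glucose uptake, −1.20. Of 16 hypoxia-response genes, 8 were higher and 5 lower, with *Ndrg1* at 2.19, *Ddit4* at −1.31 and *Ero1a* at −2.05. These lists therefore held calls in both directions, as the members did. At DN3 relative to DN2, 1 of the other glycolysis and pyruvate genes was higher and 3 lower, and 0 pentose phosphate genes were higher and 2 lower. Of the regulators 3 were higher and 0 lower, and of the hypoxia-response genes 3 were higher and 2 lower. Of the 19 proliferation genes, 0 were higher and 1 lower at that step, *Mki67* at −0.51 (adjusted p = 0.0452), with a median of −0.51.

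The steps were then read within the 2 genotypes. In TLX1 pools 10 members rose and 8 fell at DN2 relative to DN1, and in control pools 10 rose and 7 fell, where 47.9% and 44.7% of all probe sets were called in either direction. Of these, 16 were called the same way in both genotypes. *Pfkp* differed by −2.89 ± 0.29 (SE, adjusted p = 3.10e-06) in TLX1 and by −3.08 ± 0.29 (SE, adjusted p = 1.89e-06) in control pools. *Aldoc* differed by 1.85 ± 0.26 (SE, adjusted p = 4.88e-05) in TLX1 and by 1.95 ± 0.26 (SE, adjusted p = 3.11e-05) in control pools. *Hk2* and *Pfkm* were called in TLX1 pools alone, at −0.74 and 0.67, against −0.64 (adjusted p = 0.0591) and 0.35 (adjusted p = 0.0852) in control pools. *Slc16a1* was called in control pools alone, at 1.03 (adjusted p = 0.0645) in TLX1 and 1.21 in control pools. At DN3 relative to DN2, *Tpi1* (−0.69), *Pgam1* (−0.45) and *Ldha* (−0.44) fell in TLX1 pools and 0 members were called in control pools by limma. Over the array 3.04% and 1.27% were called. In control pools 7 of the 29 members had an unadjusted p under 0.05, against 3734 of all 27022 probe sets. The same 3 genes had −0.43, −0.44 and −0.30 in control pools. The difference of the steps between genotypes was tested itself, and 0 members were called at any of the 3 pairs of stages (limma interaction), as was 0% of the array in each. Before adjustment, p was under 0.05 for 0 members in DN2 against DN1, 0 in DN3 against DN2 and 1 in DN3 against DN1: *Slc2a3*, with −1.42 in TLX1 and −0.89 in control pools, a difference of −0.53 (unadjusted p = 0.0175, adjusted p = 1.0).

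TLX1 pools were compared with control pools at each stage, the question that the study asked of its arrays. No member was called by limma (0 of 29 at each stage), where 0.0037% of all probe sets were called in the DN1 fraction, 0.0037% in DN2 and 0.0185% in DN3. Before adjustment, p was under 0.05 for 0 members in DN1 cells, 0 in DN2 cells and 1 in DN3 cells. At the thresholds of the study's methods, an unadjusted p of at most 0.05 with a fold change of at least 1.4, 0, 0 and 1 members passed, against 1.54%, 2.51% and 4.33% of all probe sets. These counts read each member from its brightest probe set alone. At DN3, other probe sets of *Bpgm* and *Hk1*, given below, also met both thresholds. At DN2, dimmer probe sets of *Pfkl* and *Pfkp* had differences of −0.54 ± 0.20 and −0.97 ± 0.39 (SE), neither called by limma. Both exceeded a fold change of 1.4, so the count of 0 at DN2 need not hold on every probe set. In none of the members did the 4 TLX1 pools lie apart from the 4 control pools, which 1.25%, 2.75% and 3.89% of all probe sets did. The members with the smallest p at each stage are given next, and with 4 pools a side their standard errors were large.

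At DN1 the members with the smallest p were *Pfkfb4*, *Pfkm*, *Dlat* and *Hk3*. In the DN1 fraction, *Pfkfb4* had signals of 74.2, 87.7, 53.8 and 195 in TLX1 pools and 65.3, 43, 61.7 and 60.5 in control pools. The difference was 0.68 ± 0.38 (SE, unadjusted p = 0.108, adjusted p = 1.0), and TLX1 pool 4 was far above the rest. In the same fraction, *Pfkm* had 108, 140.1, 87.6 and 91.8 in TLX1 pools and 109, 123, 179 and 120.1 in control pools. The difference was −0.31 ± 0.23 (SE, unadjusted p = 0.208, adjusted p = 1.0), with control pool 3 the highest. *Dlat* had 269, 306, 218 and 259.8 in TLX1 pools and 274, 282, 378 and 272 in control pools. Its difference was −0.19 ± 0.19 (SE, unadjusted p = 0.335, adjusted p = 1.0). *Hk3* had 0.54 ± 0.56 (SE, unadjusted p = 0.357, adjusted p = 1.0), and without TLX1 pool 4 the sign turned, to −0.0024.

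At DN2 they were *Pfkfb2*, *Pfkp*, *Pgam1* and *Bpgm*. In the DN2 fraction, *Pfkfb2* had signals of 58.8, 57.8, 54.2 and 44.7 in TLX1 pools and 65.7, 57.1, 69.6 and 73.6 in control pools. The difference was −0.30 ± 0.15 (SE, unadjusted p = 0.0707, adjusted p = 1.0). *Pfkp* was higher in TLX1 pools, with signals of 143 to 176 across TLX1 pools and 127 to 143 across control pools, at 0.24 ± 0.12 (SE, unadjusted p = 0.0923, adjusted p = 1.0). By the median over the probe sets of each gene, *Pfkfb2* had 0.08 and *Pfkp* −0.20, so the sign of both depended on the probe set. *Pgam1* had 0.21 ± 0.15 (SE, unadjusted p = 0.206, adjusted p = 1.0) and *Bpgm* 0.27 ± 0.22 (SE, unadjusted p = 0.258, adjusted p = 1.0).

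At DN3 they were *Hk3*, *Slc2a3*, *Ldhb* and *Bpgm*. *Hk3*, with signals of 10.8 to 21.3 across TLX1 pools and 19.8 to 21.1 across control pools, had −0.50 ± 0.21 (SE, unadjusted p = 0.0407, adjusted p = 0.819). Both groups were near background there, and TLX1 pool 2 lay above every control pool. The other probe set of *Hk3* had −0.09 ± 0.20 (SE) at DN3. *Slc2a3* had signals of 430.4 to 581 across TLX1 pools and 516 to 808 across control pools, a difference of −0.36 ± 0.17 (SE, unadjusted p = 0.0683, adjusted p = 0.863). *Ldhb* had signals of 355 to 486 across TLX1 pools and 455 to 692 across control pools, a difference of −0.34 ± 0.18 (SE, unadjusted p = 0.0839, adjusted p = 0.881). At DN3, *Bpgm* had signals of 272, 257, 257 and 365 in TLX1 pools and 185, 149, 167 and 341 in control pools. The TLX1 pools 1 to 3 were above the control pools 1 to 3, and both pools numbered 4 were above the rest, so that the difference was 0.51 ± 0.27 (SE, unadjusted p = 0.0901, adjusted p = 0.891). Without pool 4 of both genotypes it was 0.65 ± 0.13 (adjusted p = 0.322). The other 2 probe sets of *Bpgm* were higher in TLX1 pools at all 3 stages too: 1 had 149.9, 166, 165 and 295 in TLX1 and 68.4, 80.2, 53.3 and 229 in control pools at DN3, a difference of 1.05 ± 0.45 (unadjusted p = 0.0459, adjusted p = 0.823). The other had 1.02 ± 0.38 at DN3 (unadjusted p = 0.0255, adjusted p = 0.766), and none of the 3 was called by limma at any stage.

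For *Hk1* the result depended on the probe set. On the brighter probe set at DN3, *Hk1* had signals of 906, 896, 880.1 and 651 in TLX1 pools and 893, 969, 896 and 611 in control pools. The difference was −0.01 ± 0.19 (SE, unadjusted p = 0.973, adjusted p = 1.0). On the dimmer probe set *Hk1* had 119, 91.2, 59.1 and 29.7 in TLX1 pools and 14.6, 49, 22.9 and 0.671 in control pools, a difference of 2.54 ± 1.10 (SE, unadjusted p = 0.048, adjusted p = 0.83). The groups overlapped there, and 1 control value lay under the floor. The 3'/5' index was lower in every TLX1 pool than in every control pool at DN3; its part in this difference was not tested. At DN1 and DN2 the dimmer probe set had 0.55 ± 0.57 and 1.33 ± 1.01, and the brighter one 0.04 and −0.04.

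**Figure D4:**
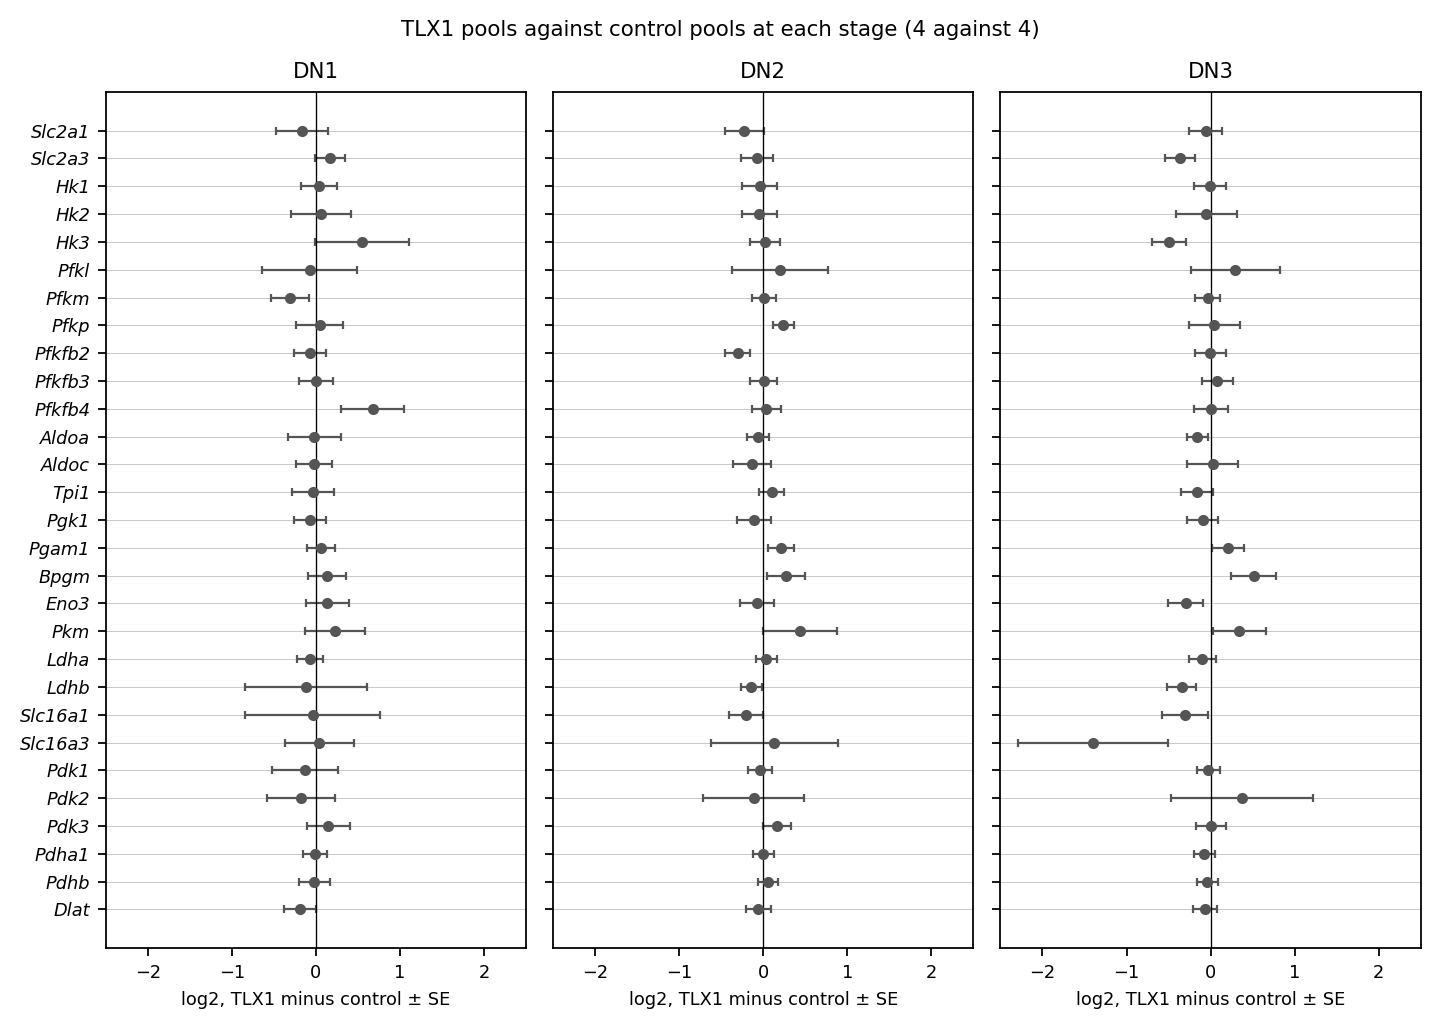
log2 differences of signal, TLX1 minus control, with standard errors (4 pools against 4) for the 29 members at DN1, DN2 and DN3. None was called; the largest point, *Slc16a3* at DN3, is −1.40 ± 0.89 from signals near the floor.

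The spread among pools was not the same at each stage. The median SD of the members over the 8 pools on the log2 scale was 0.34 in the DN1 fraction, 0.22 in DN2 and 0.26 in DN3, and 10, 4 and 4 members had an SD above 0.5. The same was not counted over all probe sets. Pool 4 was extreme in both genotypes at all 3 stages for 6 members, and for 11.2% of all probe sets. Of these members, *Slc2a1*, *Pfkfb3* and *Bpgm* were high and *Hk1*, *Pfkl* and *Pdk2* were low. Where a member had other probe sets that passed the filter, 31 in all, 26 had the sign of the probe set used at DN2 relative to DN1 and 23 at DN3 relative to DN2. Of the 24 that belong to 13 called members at the first step, 22 had the same sign and 19 were called the same way. The 2 with the opposite sign were the dim probe sets of *Hk1* and *Pfkfb3*.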

How the data were processed

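RNA of sorted DN1, DN2 and DN3 thymocytes was hybridised to Affymetrix mouse arrays, 24 in all. The authors deposited MAS5 signal intensities on a linear scale, which the submitters' processing notes credit to Affymetrix Expression Console, in a version not given in the sources used here. Every array had a mean of 150.001 after trimming 2% at each end, so levels are relative to the array. Control probe sets were removed, signals under 1 were set to 1 before the log2 transform, and the brightest 60% by mean were kept (27022 of 45037, mean signal of at least 9.02). No depth applies to arrays, and the 4 pools per genotype limit the precision.

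Stage differences were fitted with limma 3.58.1 in R 4.3.3 with the pool as a block, and TLX1 against control with limma on the 8 arrays of each stage. Calls were made at a Benjamini-Hochberg adjusted p under 0.05 over all kept probe sets. The study's methods used an unpaired test at an unadjusted p of 0.05 and a fold change of 1.4. The fits were tested on simulated data. The alternatives were quantile normalization, median centring, no filter or 40% of probe sets, an offset of 32, array weights, the RNA index or sex as covariate, the median over probe sets, a replicate block, a random block, plain tests and leaving out pools.

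Each member was read from its brightest probe set, with genes named by the platform annotation supplied for these arrays. Signals in every pool are given for the members with the largest called differences at each stage step (up to 5 higher and 5 lower), the 4 with the smallest p between genotypes at each stage, and *Hk1* and *Bpgm*. Signals of other members were added where they help the description. Genes outside the list are the 3 with the smallest p of their list or cell type markers. The members and the lists were chosen with earlier results of these data known. Replicate numbers did not pair TLX1 with control pools.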

Additional observations from a re-analysis of the deposited data

Results flagged for a closer look

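Among 126 groups of 4 pools examined for the named members, 15 held a pool whose distance from the nearest other pool took up most of the group's range, where about 1 group in 20, or 6.3, would do so by chance. Pool 4 supplied 8 of the 15. *Hk1* was low there, at 703 in TLX1 DN2, 651 in TLX1 DN3 and 665 in control DN2 cells. *Pfkl* was low in TLX1 pool 4 at DN2 (105) and *Pfkfb4* in TLX1 pool 4 at DN3 (71.2). *Bpgm* was high in TLX1 pool 4 at DN3 (365), *Slc16a1* in TLX1 pool 4 at DN2 (1463) and *Hk3* in control pool 4 at DN2 (26.6).

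Control pool 3 supplied 5. In its DN1 cells *Ldhb* (916), *Slc16a1* (2703) and *Dlat* (378) were high, and in its DN3 cells *Pfkp* was high (223) and *Aldoc* low (84.6). The other 2 were the high *Ldhb* of TLX1 pool 2 at DN1 (527) and the low *Aldoc* of control pool 1 at DN1 (30.7), the last of them a small gap among values that lie close together.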

How the results depend on the processing

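At DN2 relative to DN1, the 20 alternatives gave 10 to 17 members higher and 6 to 8 lower, and at DN3 relative to DN1, 7 to 13 and 8 to 10. The DN3 against DN2 counts depended most on the processing. The 1 member higher became 0 with quantile normalization, median centring, no filter and without pool 4 of both genotypes, 2 with the 40% filter, the RNA index as covariate and the pool as a random block, and 3 with array weights, the plain paired test and without control pool 3 and TLX1 pool 2, and it was 0 to 2 without any 1 pool. The 6 members lower became 12 with array weights, 10 with the plain paired test and without control pool 3 and TLX1 pool 2, and 1 without pool 4 of both genotypes, and 3 to 10 without any 1 pool. Leaving out pool 4 of both genotypes was chosen after seeing the data.

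Between genotypes, 0 members were called by limma at any stage in the 22 alternatives. At the thresholds of the study's methods, the count at DN1 was 2 with the RNA index as covariate and 0 to 1 without any 1 pool. At DN3 it was 0 with no filter, the 40% filter, the offset of 32 and the methods' t-test, 2 without pool 4 of both genotypes and 0 to 1 without any 1 pool. Replicate numbers did not pair the samples (deviations of same-numbered pools correlated at −0.34 to 0.48, and only pool 4 correlated best with its own number), and with the replicate block the DN3 count was 2 and calls stayed at 0.

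Uncalled differences between genotypes changed sign as follows. With array weights *Bpgm* at DN1 was −0.0864, *Hk1* at DN2 0.0022 and *Hk1* at DN3 0.0173, and with quantile normalization *Hk1* at DN3 was 0.0123. With the median over probe sets, *Hk1* was 0.64 at DN2 and 1.27 at DN3, *Pfkfb2* at DN2 0.0803 and *Pfkp* at DN2 −0.20. Without any 1 pool, *Bpgm* at DN1 ranged from −0.0104 to 0.23, *Hk1* from −0.0729 to 0.13 at DN1, −0.21 to 0.0794 at DN2 and −0.15 to 0.11 at DN3, and *Hk3* at DN1 from −0.0024 to 0.93. The cause of these changes was not tested, beyond the fewer pools or other probe sets that some settings use. Signals of *Hk3* and *Slc16a3* near background limit what their folds can show.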
